A study of Rattus norvegicus with 48 samples.

Results

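The plasma levels of 7 mature miRNAs of the miR-125 and miR-99/100 families were followed in rats with a healing skull defect. The members were rno-miR-125a-5p, rno-miR-125b-5p, rno-miR-125b-1-3p, rno-miR-125b-2-3p, rno-miR-99a-5p, rno-miR-99b-5p and rno-miR-100-5p. They were chosen by name, are 7 of the 645 miRNAs in the count table, and each had reads in all 48 samples.

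Blood plasma was collected from 12 rats before surgery (baseline) and at weeks 1, 4 and 8 after a round defect had been drilled into the calvaria, the bony roof of the skull. Small RNA libraries were sequenced from all 12 rats at every time point. The study had selected 6 rats as strong regenerators, labelled good, and 6 as weak regenerators, labelled bad, so each group holds 6 samples per time point. Rats were male and 12 weeks of age. Their strain is Sprague-Dawley in the study's methods and Wistar elsewhere in its text. All 12 carried the defect, either left empty or filled with a collagen hydroxyapatite scaffold, which was used plain, loaded with a plasmid for BMP2 and miR-590-5p, or loaded with extracellular vesicles. The labels do not tie a rat to its treatment, the 4 treatments are unevenly spread between strong and weak regenerators, and treatment and regeneration cannot be told apart. There was no group without surgery, so time after surgery, age and repeated sampling cannot be told apart either. Baseline samples carry no regeneration grade of their own and took that of the rat.

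A miRNA is cut from a hairpin precursor with a 5p and a 3p arm. In the family, the 5p arms are the usual guide strands that are loaded into Argonaute and pair with messenger RNAs through the seed, bases 2 to 8, whereas the 3p arms are usually discarded and rare. miR-125b is known for its regulation of blood cell formation, of p53 and of osteoblast differentiation, and miR-99/100 for targeting components of the mTOR and IGF1 receptor pathways. The genes lie in 3 related clusters, each with a miR-99 or miR-100 gene, a let-7 gene and a miR-125 gene.

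The sequences are shown because the family splits by seed and because near-identical members share reads. Mature entries were found for 6 of the 7 members in RefSeq (build GRCr8, read 5′ to 3′), and capitals mark the seed. The miR-125 guide arms share their seed with one other rat miRNA, rno-miR-351-5p, among 694 mature entries.
rno-miR-125a-5p, chr1:67350689-67350712, plus strand: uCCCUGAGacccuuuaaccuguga
rno-miR-125b-5p, chr11:29732588-29732609, plus strand: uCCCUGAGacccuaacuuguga
rno-miR-351-5p, chrX:137725157-137725181, minus strand: uCCCUGAGgagcccuuugagccuga
rno-miR-99b-5p, chr1:67350070-67350091, plus strand: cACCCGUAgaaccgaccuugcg
rno-miR-100-5p, chr8:50798307-50798328, plus strand: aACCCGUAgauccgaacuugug
rno-miR-125b-1-3p, chr8:50850090-50850111, plus strand: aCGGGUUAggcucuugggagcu
rno-miR-125b-2-3p, chr11:29732627-29732648, plus strand: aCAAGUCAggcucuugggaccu

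Counted from 1 at the 5′ end, miR-125a-5p and miR-125b-5p are identical over their first 13 bases and differ at 7 of the 22 compared. miR-100-5p and miR-99b-5p share the seed and match at 18 of 22 bases. The 3p arms of miR-125b have different seeds, each found in no other mature entry, and differ at 4 of 22 bases (G3A, G4A, U7C and G20C, from miR-125b-1-3p to miR-125b-2-3p). Mature miR-125b-5p is encoded at both of its loci: the RefSeq entry lies in Mir125b2 on chromosome 11, and an exact copy, in capitals, stands in the Mir125b1 hairpin on chromosome 8.
Mir125b1 hairpin, chr8:50850036-50850122, plus strand: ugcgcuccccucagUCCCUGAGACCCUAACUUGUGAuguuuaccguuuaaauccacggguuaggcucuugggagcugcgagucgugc

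Reads of miR-125b-5p therefore cannot be divided between the loci, whereas miR-125b-1-3p reports the chromosome 8 hairpin and miR-125b-2-3p the chromosome 11 hairpin. The Mir99a hairpin, which gives rise to miR-99a-5p, holds a stretch (capitals) that matches miR-100-5p at 21 of 22 bases and differs by A16U, with positions counted in miR-100-5p. The authors allowed 1 mismatch when reads were assigned, so the split of reads between miR-99a-5p and miR-100-5p is uncertain.
Mir99a hairpin, chr11:29687392-29687472, plus strand: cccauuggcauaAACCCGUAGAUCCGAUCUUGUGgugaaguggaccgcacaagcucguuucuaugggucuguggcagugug

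By genome position, miR-99b-5p and miR-125a-5p lie 597 bases apart on chromosome 1, inside the annotated span of the protein-coding gene Spaca6. miR-100-5p and miR-125b-1-3p are 51761 bases apart on chromosome 8, within the host gene entry Mir100hgl, and the miR-99a and miR-125b-2 hairpins share a long noncoding RNA locus (LOC103693508) on chromosome 11.

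Levels are given as RPM, a library's reads of a miRNA as a proportion of all its miRNA reads (reads per 1000000). Libraries held 393259 to 1586398 miRNA reads. All 12 week 8 libraries stood apart in the extraction spike-in UniSp2, a synthetic RNA added in fixed amount, with 91.1 to 144 spike-in reads per 1000 miRNA reads against 23.3 to 60.4 in all other libraries. The labels name no extraction or sequencing batch, and week 8 and whatever set these libraries apart cannot be told apart. Fold changes were fitted with edgeR across all miRNAs with 12 rats per time point, and a change was called at a false discovery rate (FDR) under 0.05. Week 1, week 4 and week 8 were all set against the same 12 baseline samples.

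All members were lower at week 8 than at baseline, while at weeks 1 and 4, with TMM scaling and all rats, the members that had fallen past the threshold were 3p arms of miR-125b. These calls do not set the 3p arms apart from the guide arm. At week 1 miR-125b-5p, not called, had a larger fold change (-0.75) and a larger standard error than the called miR-125b-2-3p (-0.38). The family sum was 12894 ± 3935 RPM before surgery (SD, n = 12), then 9527 ± 3223 (week 1), 9264 ± 2480 (week 4) and 5564 ± 1790 (week 8). In the edgeR fit, 1 of the 6 members tested was called lower at week 1, when 9.05% of all tested miRNAs were called lower. At week 4 it was 2 of 7 members against a background of 4.03%, and at week 8 it was 7 of 7 against 26.1%. The filter kept 232, 645 and 620 miRNAs at the 3 weeks, so the later backgrounds include many scarce miRNAs. With the edgeR filter filterByExpr, which kept 313 miRNAs at each week, 21, 27 and 100 were called lower, among them 2, 2 and 6 members. The median log2 fold change of the members was -0.38, -0.39 and -1.33 at the 3 weeks, beside -0.04, 0.07 and -0.12 for the 310 miRNAs with a mean of at least 10 RPM. All 7 members also lay below 0 at each week when libraries were scaled by their size, by RLE or by the spike-in, the last of which moved the median of those 310 miRNAs to -2.01 at week 8. Week 4 against week 1 gave no call for a member, and 0% of 645 miRNAs were called (edgeR; 79 miRNAs, among them 1 member, had an unadjusted p under 0.05, and DESeq2 called 1 miRNA, no member). From week 4 to week 8, 4 of 7 members were called lower, against 25.8% of all tested miRNAs.

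**Figure D1:**
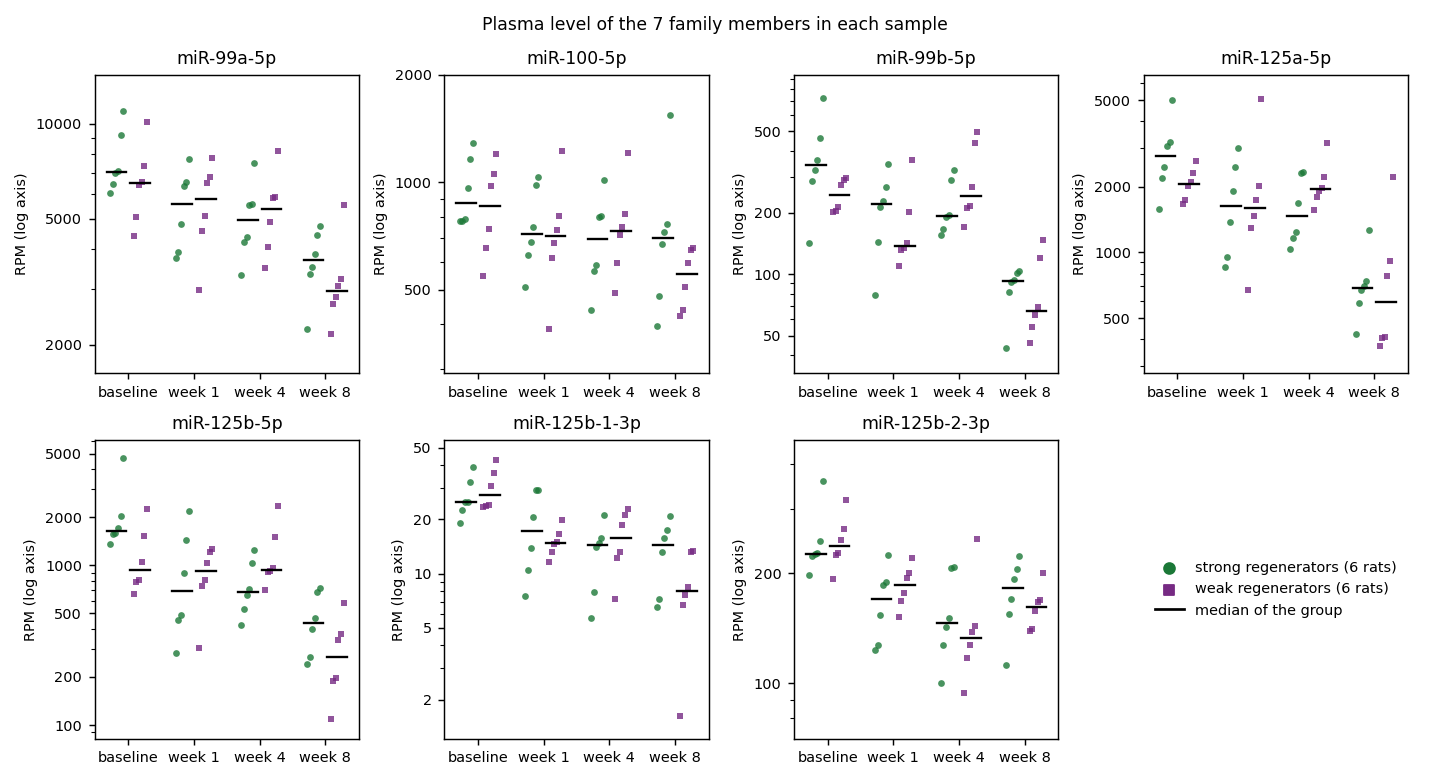
RPM of each member (log axis) in every sample at baseline and weeks 1, 4 and 8, with strong regenerators as green circles, weak regenerators as purple squares and the median of each group as a black bar (6 rats). The week 8 points of miR-125b-5p lie between 109 and 725 RPM, against 667 to 4706 at baseline, and the strong and weak points overlap at every time point.

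Of the 7 members, miR-125b-5p had the largest fold change at week 8. Its level was 667 RPM in the lowest, 1545 in the median and 4706 in the highest baseline sample, then 282, 855 and 2206 (week 1), 423, 913 and 2351 (week 4), and 109, 356 and 725 (week 8). At week 8, 10 of 12 samples were below the lowest baseline sample, and every rat was below its own baseline. The log2 fold change at week 8 was -2.10 (SE 0.31, FDR = 1.4e-07), a 4.28-fold lower level. At week 1 it was -0.75 (SE 0.30, FDR = 0.0629) and at week 4 -0.65 (SE 0.30, FDR = 0.23), with 8 of 12 rats lower at both times, and neither passed the threshold. The week 1 change passed with the RLE size factors (-0.76, FDR = 0.0478), with spike-in scaling (-1.04, FDR = 0.0344) and without rat 2 (-0.92, FDR = 0.0408), and the week 4 change without rat 7 (-0.84, FDR = 0.0487).

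miR-125a-5p, with the same seed and a different tail, was the second most abundant member, with a mean of 1767 RPM over all samples. It ranged from 1586 to 5001 RPM at baseline (median 2249), 671 to 5040 at week 1 (median 1600), 1041 to 3190 at week 4 (median 1860) and 371 to 2228 at week 8 (median 689). The groups of week 8 and baseline overlapped through 1 sample, since 11 of 12 week 8 samples were below all baseline samples. Its log2 fold change was -0.27 (SE 0.26, FDR = 0.479) at week 1, -0.31 (SE 0.26, FDR = 0.54) at week 4 and -1.61 (SE 0.26, FDR = 1.3e-06) at week 8, 3.05-fold lower. The ratio of miR-125a-5p to miR-125b-5p had a median of 1.58 at baseline and 1.96 at week 8, and the difference did not pass the threshold (mean log2 difference 0.33, SD 0.75, 12 rats, exact sign-flip permutation test, two-sided, adjusted p = 0.309).

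miR-351-5p, the third miRNA with this seed, is encoded on the X chromosome and is not a member. Its median was 530 RPM before surgery, then 265 (week 1), 175 (week 4) and 191 (week 8). It was called lower at each time, with log2 fold changes of -1.03 (SE 0.19), -1.28 (SE 0.19) and -1.26 (SE 0.19), and from week 4 to week 8 the change was 0.03 (SE 0.19, FDR = 0.93; -1.45 with spike-in scaling). Summed over the 3 miRNAs with the miR-125 seed, the level went from 4739 ± 2108 RPM at baseline (SD, n = 12) to 3087 ± 1582, 3086 ± 1121 and 1397 ± 741.

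miR-99a-5p was the most abundant member, at a mean of 5371 RPM and rank 37 of 645, and made up 56.5% ± 5.33 of the family reads at baseline (SD, n = 12). Its lowest, median and highest values were 4402, 6759 and 10986 RPM at baseline, then 2976, 5706 and 7754 (week 1), 3316, 5218 and 8214 (week 4), and 2163, 3284 and 5508 (week 8). Each rat was lower at week 8 than at its own baseline, and 9 of 12 week 8 samples were below all baseline samples. The log2 fold change was -0.28 (SE 0.15, FDR = 0.164) at week 1, -0.39 (SE 0.15, FDR = 0.144) at week 4 and -1.0 (SE 0.15, FDR = 1.4e-07) at week 8, when the level was 2.0-fold lower. Scaled to the spike-in, it was also called at week 1 (-0.60, FDR = 0.0487) and week 4 (-0.75, FDR = 0.0124).

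miR-100-5p had the smallest fold change at week 8. It was measured at 547, 877 and 1284 RPM (lowest, median, highest) at baseline, then 389, 706 and 1220 (week 1), 439, 731 and 1203 (week 4), and 396, 622 and 1539 (week 8). The highest of all its samples was a week 8 sample, that of rat 21, and 11 of 12 rats were lower than at baseline. The log2 fold change at week 8 was -0.42 (SE 0.16, FDR = 0.0305). This call was lost with the RLE size factors (-0.29, FDR = 0.154), with DESeq2 (-0.29, FDR = 0.144), with filterByExpr (-0.27, FDR = 0.133), and without any one of rats 2, 3, 5, 6, 7, 17, 23, 25 and 29 (FDR 0.0525 to 0.206). At week 1 it was -0.17 (SE 0.16, FDR = 0.471) and at week 4 -0.24 (SE 0.16, FDR = 0.44).

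miR-99b-5p, the third miRNA with the miR-99/100 seed, was scarcer, at a mean of 214 RPM. Samples ranged from 141 to 728 RPM at baseline (median 287), 78.9 to 360 at week 1 (median 172), 155 to 497 at week 4 (median 213) and 43.5 to 147 at week 8 (median 86.6). All 12 week 8 samples were below all week 4 samples, and 11 were below all baseline samples. At week 8 the log2 fold change was -1.83 (SE 0.24, FDR = 1.3e-08), 3.56-fold lower, after -0.56 (SE 0.23, FDR = 0.0761) at week 1 and -0.17 (SE 0.23, FDR = 0.757) at week 4. Without rat 3 the week 1 change was -0.70 (FDR = 0.0389).

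**Figure D2:**
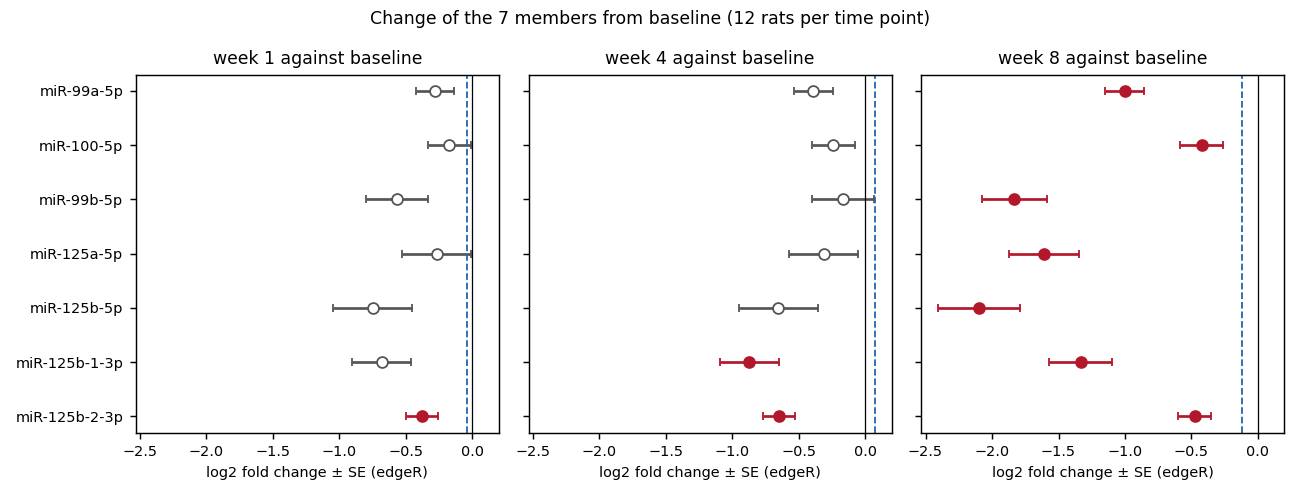
Log2 fold change from baseline with its standard error for the 7 members at weeks 1, 4 and 8 (edgeR, 12 rats per time point). Filled red points were called at FDR under 0.05, open points were not, and the dashed line is the median of the 310 miRNAs with a mean of at least 10 RPM. All 7 points are filled at week 8, from -0.42 for miR-100-5p to -2.10 for miR-125b-5p.

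Of the 3p arms of miR-125b, miR-125b-2-3p followed another course than the guide arms. miR-125b-2-3p was present at 193 to 358 RPM at baseline (median 228), 123 to 224 at week 1 (median 181), 93.8 to 249 at week 4 (median 140) and 112 to 223 at week 8 (median 168). Its lowest median thus came at week 4, with 12 of 12 rats below their baseline, and not at week 8, with 11 of 12. The log2 fold change was -0.38 (SE 0.12, FDR = 0.0245) at week 1, -0.65 (SE 0.12, FDR = 0.000114) at week 4 and -0.48 (SE 0.12, FDR = 0.0011) at week 8. The week 1 call was lost with no filter on low miRNAs (FDR = 0.0606) and without any one of rats 5, 7, 23 and 25 (FDR 0.0602 to 0.111). From week 4 to week 8 the change was 0.17 (SE 0.12, FDR = 0.268), while DESeq2 called it higher (0.29, FDR = 0.042), as did edgeR with filterByExpr (0.33, FDR = 0.0165) or without rat 29 (0.34, FDR = 0.0377). Scaling to the spike-in turned it to -1.43.

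miR-125b-1-3p, the chromosome 8 counterpart, was the scarcest member, with 1 to 47 reads per sample and a mean of 17.7 RPM, so single values are imprecise. It was measured at 19.0, 24.9 and 42.4 RPM (lowest, median, highest) at baseline, then 7.51, 14.7 and 29.1 (week 1), 5.69, 14.4 and 22.7 (week 4), and 1.62, 10.8 and 20.8 (week 8). All 12 rats were lower than their baseline at weeks 4 and 8, with log2 fold changes of -0.87 (SE 0.22, FDR = 0.00689) and -1.33 (SE 0.24, FDR = 5.1e-06). At week 1 the change was -0.68 (SE 0.22) with an unadjusted p of 0.00307, but the mean lay under the filter of 36.6 RPM used in that comparison and no FDR was given. With the rat as a replicate block, where more miRNAs passed the filter, it was -0.69 (FDR = 0.0413), and 2 members were called at week 1 in place of 1.

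Ratios of a pair of members within one library do not depend on how libraries are scaled, apart from the pseudocount. Across 9 ratios and 3 weeks, 6 of 27 exact sign-flip permutation tests on 12 rats (two-sided, log2 of RPM plus 1, Benjamini-Hochberg over the 27) passed an adjusted p of 0.05, and 5 of these were at week 8. The ratios share members, several of them miR-125b-5p, and are not separate findings. miR-99a-5p to miR-125b-5p is the product of miR-99a-5p to miR-100-5p and miR-100-5p to miR-125b-5p. At weeks 1 and 4 the 3p arms of miR-125b did not differ from miR-125b-5p past the threshold. Mean log2 differences were 0.41 and -0.05 for miR-125b-2-3p (adjusted p = 0.332 and 0.890). For miR-125b-1-3p they were 0.10 and -0.30 (adjusted p = 0.814 and 0.492). At week 8 the median ratio of miR-125b-2-3p to miR-125b-5p was 0.429, against 0.165 at baseline, a mean log2 difference of 1.59 (SD 1.13, 11 of 12 rats higher, adjusted p = 0.0132). The opposite direction was found between the 3p arms of the chromosome 8 and chromosome 11 hairpins: miR-125b-1-3p to miR-125b-2-3p went from a median of 0.113 to 0.0740 (mean log2 difference -0.91, SD 0.92, 11 of 12 rats lower, adjusted p = 0.0185). That difference rests on the low counts of miR-125b-1-3p and no longer passed with a pseudocount of 10 RPM (-0.39, adjusted p = 0.158).

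Guide arms also shifted against each other. miR-99a-5p to miR-100-5p went from a median ratio of 8.13 at baseline to 7.14 at week 4 (mean log2 difference -0.14, SD 0.13, 10 of 12 rats lower, adjusted p = 0.0308) and 5.52 at week 8 (-0.53, SD 0.40, 11 of 12 rats lower, adjusted p = 0.0185). The week 4 difference no longer passed without any one of rats 2, 6, 7, 16, 17, 23 and 29 (adjusted p = 0.0615), and the split of reads between these miRNAs is uncertain. miR-100-5p to miR-125b-5p went from 0.592 to 1.58 at week 8 (1.59, SD 1.14, 11 of 12 rats higher, adjusted p = 0.0132), and miR-99a-5p to miR-125b-5p from 4.78 to 9.14 (1.06, SD 0.81, 11 of 12 rats higher, adjusted p = 0.0132). In the clustered pair on chromosome 1, miR-99b-5p to miR-125a-5p was 0.124 at baseline and 0.129 at week 8, and the mean log2 difference was -0.05 (SD 0.54, adjusted p = 0.801). As shares of the family reads, miR-100-5p went from 7.20% ± 1.17 at baseline to 11.9% ± 3.56 at week 8 and miR-125b-5p from 12.2% ± 3.65 to 6.69% ± 2.43 (SD, n = 12).

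**Figure D3:**
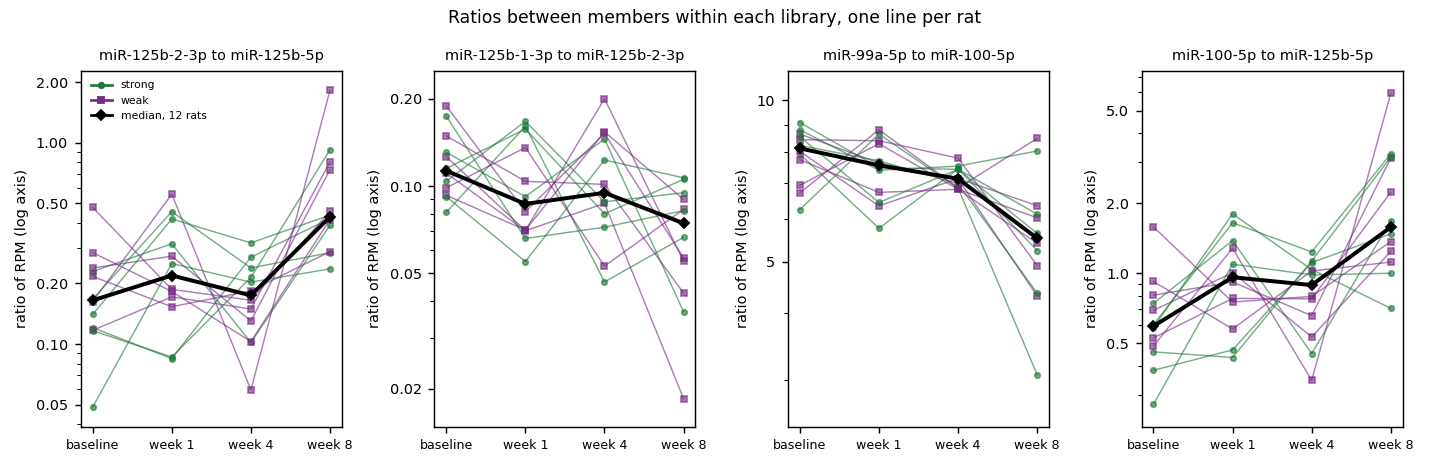
Ratio of RPM plus 1 (log axis) between pairs of members at each time point, one line per rat (green circles strong, purple squares weak regenerators), with the median of 12 rats in black. The median of miR-125b-2-3p to miR-125b-5p went from 0.165 at baseline to 0.429 at week 8, and that of miR-99a-5p to miR-100-5p from 8.13 to 5.52.

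The other arms of the same hairpins were examined next, together with the let-7 miRNAs of the clusters, 10 partners in all, of which 6 had a mean of at least 10 RPM. None of the 3 tested at week 1 and none of the 10 tested at week 4 was called (edgeR). With library size, miR-99b-3p was called lower at week 4 (-0.65, FDR = 0.0416), and with spike-in scaling miR-99a-3p and miR-125a-3p were called lower at weeks 1 and 4 and miR-99b-3p at week 4. At week 8, 1 was called lower, miR-125a-3p, and none higher, where the background was 26.1% lower and 14.2% higher. miR-125a-3p had medians of 39.1 RPM at baseline and 20.6 at week 8, with a log2 fold change of -0.95 (SE 0.21, FDR = 0.000231). The let-7 miRNAs of the clusters above 10 RPM were not called at week 8: let-7c-5p was at -0.58 (SE 0.25, FDR = 0.0537), let-7e-5p at 0.08 (SE 0.38, FDR = 0.905) and let-7a-5p, which other let-7a genes also encode, at 0.07 (SE 0.24, FDR = 0.848). This depended on scaling: let-7c-5p was called lower with library size (-0.63, FDR = 0.0331), and all 3 with the spike-in (-2.47, -1.75 and -1.81), beside a median of -2.01 over the abundant miRNAs.

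The 3p arms of miR-99a and miR-99b, which share a seed, did not follow their guide arms.
rno-miR-99a-3p, chr11:29687441-29687462, plus strand: cAAGCUCGuuucuaugggucug
rno-miR-99b-3p, chr1:67350108-67350129, plus strand: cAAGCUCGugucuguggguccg

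For miR-99a-3p the median was 19.3 RPM before surgery, then 14.9 (week 1), 11.5 (week 4) and 27.2 (week 8). Against baseline the week 8 change was 0.40 (SE 0.23, FDR = 0.171). Against week 4 it was called higher (0.98, SE 0.24, FDR = 0.00062), while miR-99a-5p was called lower (-0.61, SE 0.15, FDR = 0.000542). miR-99b-3p had medians of 49.7, 38.9, 31.8 and 45.7 RPM over the 4 time points. Against baseline its week 8 change was 0.13 (SE 0.21, FDR = 0.655) in the fit, although 8 of 12 rats were lower than at baseline in RPM. It was likewise called higher at week 8 than at week 4 (0.69, SE 0.21, FDR = 0.0064), and miR-99b-5p lower (-1.67, SE 0.24, FDR = 1.1e-07). Of the 9 partners tested in that comparison, 3 were called higher and 1 lower, where 14.3% of all tested miRNAs were called higher and 25.8% lower. Scaling to the spike-in turned the changes of miR-99a-3p and miR-99b-3p from week 4 to week 8 to -0.53 and -0.83, beside a median of -1.69 over the abundant miRNAs. The within-library percentage is free of that choice, though not of whatever set the week 8 libraries apart. miR-99a-3p amounted to 0.282% of miR-99a-5p at baseline (median, range 0.108 to 0.561) and 0.900% at week 8 (0.450 to 1.23). miR-99b-3p amounted to 15.7% of miR-99b-5p at baseline (8.70 to 39.2) and 51.3% at week 8 (28.6 to 122). At weeks 1 and 4 the medians were 0.308% and 0.242% for miR-99a, above the rat's own baseline in 6 and 4 of 12 rats. For miR-99b they were 21.4% and 11.3%, above it in 9 and 4 rats. At week 8 both percentages were above the rat's own baseline in 12 of 12 rats. The other hairpins went the same way in fewer rats: miR-125a-3p went from a median of 1.44% of its 5p arm at baseline to 2.81% at week 8, higher in 11 of 12 rats, and miR-100-3p from 0.637% to 1.29%, higher in 7 of 12. miR-100-3p was scarce, at a mean of 5.36 RPM and 0 RPM in its lowest week 8 sample, so its percentages are imprecise. This arm comparison was added after the data were seen, and no test was run on it. Arms also moved apart from baseline to week 8 in hairpins outside the family. The median within-rat change in log2(RPM + 1) was 1.11 for miR-142-3p and -1.26 for miR-142-5p. For miR-144 it was -0.48 (3p) and 1.02 (5p), for miR-199a -2.59 and -0.31, and for miR-126a 0.12 and -0.06. A shift between arms is thus not particular to the family, and no share over all hairpins was computed.

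**Figure D4:**
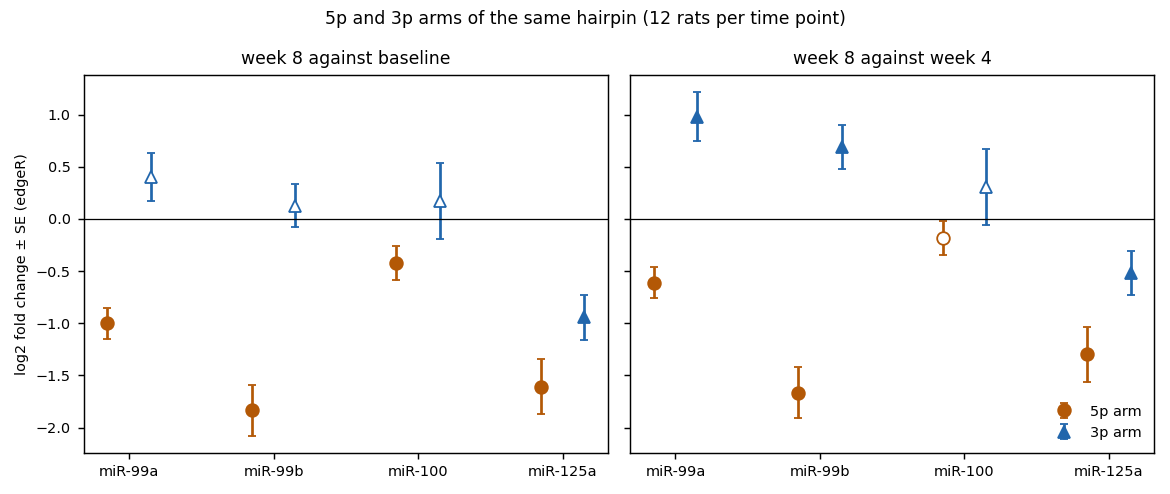
Log2 fold change with its standard error for the 5p arm (orange circles) and the 3p arm (blue triangles) of 4 hairpins at week 8, against baseline and against week 4 (edgeR, 12 rats per time point). Filled symbols were called at FDR under 0.05. For miR-99a and miR-99b the 3p arm lies above 0 and the 5p arm below 0 in both panels, a sign that spike-in scaling turns for the 3p arms. Neither 3p arm was called against baseline, and in RPM miR-99b-3p was below baseline in 8 of 12 rats.

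miR-10a-5p and miR-10b-5p, which carry a sequence related to miR-99/100 but another seed, were called lower at week 8 (-1.04, SE 0.28, FDR = 0.00173 and -1.46, SE 0.24, FDR = 1.1e-06). They were not called at week 1 (-0.14 and -0.53) or week 4 (-0.28 and 0.10). With miR-351-5p, the 3 relatives gave 1, 1 and 3 lower calls at weeks 1, 4 and 8, where 9.05%, 4.03% and 26.1% of all tested miRNAs were called lower. Spike-in scaling gave 2 at week 1, with miR-10b-5p (-0.81, FDR = 0.0341), and the same counts at weeks 4 and 8.

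Strong and weak regenerators were compared next, since the study asked whether circulating miRNAs tell them apart. Over all time points no member was called between the groups, and 0% of 645 miRNAs were (edgeR; 64 miRNAs but no member had an unadjusted p under 0.05, and DESeq2 called none). The log2 differences, strong minus weak, ran from -0.15 (95% interval -0.51 to 0.21) for miR-125a-5p to 0.19 (-0.23 to 0.60) for miR-125b-5p. This fit had no term for the rat and counted the 4 samples of a rat as independent, so the intervals overstate the precision for 6 rats against 6. With 1 value per rat, the mean of log2(RPM + 1) over the 4 time points, the differences of the 7 members ran from -0.01 to 0.20, and the smallest adjusted p was 0.991 (exact permutation test, two-sided, over all assignments of 12 rats to 6 and 6, adjusted over 459 miRNAs). None of the 9 ratios differed past the threshold, the smallest adjusted p being 0.487 for miR-125a-5p to miR-125b-5p (log2 difference -0.21, exact permutation test).

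At single time points, no member was called at baseline, week 1, week 4 or week 8, where 0%, 0%, 0% and 0.155% of the miRNAs were called (edgeR; DESeq2 called none). The number of miRNAs with an unadjusted p under 0.05 was 42, 32, 25 and 35, and 1 of these was a member, miR-125b-5p at baseline. It was measured at 1356, 1653 and 4706 RPM (lowest, median, highest) in strong and 667, 933 and 2271 in weak regenerators, with overlapping groups and a log2 difference of 0.84 (95% interval 0.06 to 1.61, unadjusted p = 0.039, FDR = 0.698 in edgeR). At week 4 the order of the medians was the reverse, 680 RPM in strong (423 to 1255) and 942 in weak regenerators (697 to 2351), with a log2 difference of -0.70 (SE 0.39, FDR = 0.851).

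The change of miR-125b-5p from baseline to week 4 was a decrease in 6 of 6 strong and 2 of 6 weak regenerators, the same counts as for let-7a-5p. It uses the baseline samples compared above and is not a separate observation. The difference between the changes of miR-125b-5p in strong and weak regenerators, tested as an interaction in edgeR, was -1.53 (SE 0.56, unadjusted p = 0.0082, FDR = 0.532). For miR-99b-5p it was -1.09 (SE 0.45, unadjusted p = 0.0191, FDR = 0.532). Neither passed the threshold, and this fit had no term for the rat, so the samples of a rat were not paired. In the joint test over the 3 weeks 0% of the 645 miRNAs were called, 30 had an unadjusted p under 0.05, and the only member among those was miR-125b-5p (unadjusted p = 0.0468, FDR = 0.984). With the rat as a replicate block, the joint test likewise called no member and none of the 645 miRNAs. At week 8 the guide arms of miR-125b, miR-99a and miR-99b were below the rat's own baseline in 6 of 6 strong and 6 of 6 weak regenerators, miR-125a-5p in 6 strong and 5 weak, and miR-100-5p in 5 strong and 6 weak.

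**Figure D5:**
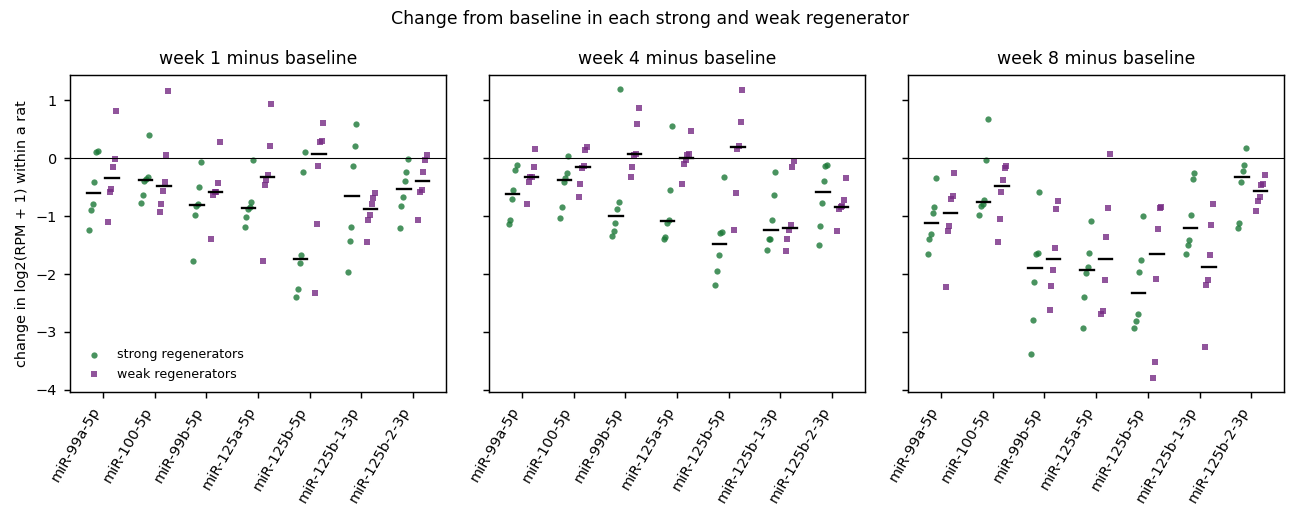
Change in log2(RPM + 1) from the rat's own baseline for the 7 members at weeks 1, 4 and 8, strong regenerators as green circles, weak regenerators as purple squares, and the group median as a black bar (6 rats each). For miR-125b-5p at week 4, all 6 strong and 2 of 6 weak regenerators lie below 0, and at week 8 all 12 do. The difference between the groups at week 4 was not called in edgeR.

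Likeness is described over the 48 samples, whose values share library depth, rat and time point. The miRNA most like miR-99a-5p among the members was miR-100-5p (Pearson r of log2(RPM + 1) 0.83, and 0.85 after time point means were removed), and the member most like miR-125a-5p was its neighbour miR-99b-5p (0.92 and 0.84). The 3p arm miR-125b-2-3p was closer to miR-100-5p (0.68 and 0.69) and miR-99a-5p (0.63 and 0.64) than to miR-125b-5p (0.34 and 0.16). Among all 309 other miRNAs above 10 RPM, miR-10a-5p was most like miR-125a-5p (0.94, and 0.93 after time point means were removed). miR-199a-3p was most like miR-125b-5p (0.93 and 0.87) and miR-99b-5p (0.95 and 0.88). The most alike by the first value were miR-152-3p for miR-99a-5p (0.86 and 0.73), miR-218a-5p for miR-125b-2-3p (0.70 and 0.77) and miR-149-5p for miR-125b-1-3p (0.74 and 0.45).

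miRNAs typical of cells that shed RNA into plasma moved as well. The 7 red blood cell miRNAs summed to 294849 ± 30428 RPM at baseline (SD, n = 12) and 378195 ± 38559 at week 8, with 5 of 7 called higher at week 1 (background 12.5% called higher), none at week 4, and 4 higher and 1 lower at week 8 (background 14.2% higher and 26.1% lower). Leukocyte and platelet miRNAs went from 46001 ± 14721 to 25763 ± 4543 RPM, with 2 of 6 called higher and 3 lower at week 8. Of 7 mesenchymal and vascular miRNAs, miR-199a-3p and miR-214-3p were called lower at weeks 1 and 8, with log2 fold changes of -2.83 (SE 0.33) and -2.07 (SE 0.22) at week 8, miR-145-5p was called higher at week 8, and none was called at week 4. Of 3 liver miRNAs, of which 2 were tested at week 1, 1 was called higher at week 1 and 2 lower at week 8, and none of 3 muscle miRNAs, of which 1 was tested at week 1, was called at any week. These calls depended on scaling. No red blood cell miRNA was called at week 1 with library size or spike-in scaling, and at week 8 the spike-in put all 7 of them, all 6 leukocyte and platelet, all 7 mesenchymal and vascular, all 3 liver and all 3 muscle miRNAs among the lower calls. The part of these sources in the members' levels was not tested, and in plasma a smaller share of reads and fewer molecules of a miRNA cannot be told apart by RPM.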

How the data were processed

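Small RNA libraries of blood plasma were made with a single-adapter ligation kit. According to the study's methods, the authors trimmed reads with cutadapt and mapped them with Bowtie through miRDeep2 to the rat genome Rnor_6.0 and then to rat miRBase, allowing 1 mismatch there; the submitters' processing notes give cutadapt 3.3 and Bowtie 1.3.0 and name GRCh38.p12 instead. No molecular identifiers are named, so reads are not independent molecules. The deposited values are raw counts for 645 miRNAs and 3 spike-ins in 48 samples, and RPM was computed here from the miRNA counts alone.

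Counts were tested with edgeR 4.0.16 (quasi-likelihood, TMM, two-sided) in R 4.3.3 with an independent filter on mean RPM after the DESeq2 rule and Benjamini-Hochberg adjustment over all miRNAs kept. The main fits had no term for the rat. Standard errors of edgeR fold changes were computed here, as the absolute log2 fold change divided by the square root of the quasi-likelihood F statistic. The 95% intervals were built from them with a normal quantile. Ratios and per-rat levels, with a pseudocount of 1 RPM, were tested with exact permutation tests. All 7 members were named. Of the partners and relatives, those with a mean of at least 10 RPM were named, and miR-100-3p (mean 5.36 RPM) was added for the comparison of arms. Likeness named the 3 miRNAs with the highest r, of which the text gives the first or the first member. The members and lists were chosen with earlier results of these data known. Alternatives were other scalings (library size, RLE, UniSp2), other filters, DESeq2 1.42.0, limma 3.58.1, the rat as a replicate block, each rat left out, sums per rat, and, chosen after seeing the data, time comparisons without week 8. The 4 samples of a number come from 1 rat by the labels; their deviations from group means correlated at 0.107 on average against -0.0079 between rats, and 6 of 12 rats were over 0.1. Replicate pairs differed beyond counting noise (chi-square per degree of freedom 17.3 to 340 over 120 pairs). On simulated counts for 645 miRNAs with 200 changed 2-fold, the week 8 comparison recovered 52.5% of the 200, and 94.8% of the 96 of them above 10 RPM, and 4.55% of all its calls were false.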

Additional observations from a re-analysis of the deposited data

Results flagged for a closer look

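In 56 groups of 6 samples, 7 members at 4 time points in strong and weak regenerators, 9 groups held 1 sample whose distance to its nearest neighbour exceeded the Dixon limit of 0.625 of the group's range. The limit is set to flag about 1 in 20 groups of independent, normally distributed values. RPM was used untransformed and the members share libraries, so the 9 groups cannot be read against that rate.

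Weak regenerator rat 3 stood apart at week 1 in miR-125a-5p, at 5040 RPM against 671 to 2021 in the other 5, and in miR-99b-5p, at 360 RPM against 109 to 200. Weak regenerator rat 26 did so at week 8 in miR-125a-5p, at 2228 RPM against 371 to 915, and in miR-99a-5p, at 5508 RPM against 2163 to 3226. Strong regenerator rat 29 held 4706 RPM of miR-125b-5p at baseline, against 1356 to 2040. miR-125b-2-3p was at 358 RPM in strong regenerator rat 5 at baseline, against 198 to 245, and at 249 RPM in weak regenerator rat 25 at week 4, against 93.8 to 143. At week 8, strong regenerator rat 17 had 43.5 RPM of miR-99b-5p against 81.7 to 104, the single low value, and strong regenerator rat 21 had 1539 RPM of miR-100-5p against 396 to 765.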

How the results depend on the processing

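At week 1, 1 member was called, and the number was 2 with library size, RLE, filterByExpr, the replicate block, DESeq2 and without the week 8 samples, 5 with UniSp2 scaling, 0 with no filter, 0 at more than 2-fold, and 0 to 3 when a rat was left out, 0 without rat 5 or rat 7 and 3 without rat 2. At week 4, 2 members were called, 0 at more than 2-fold, 3 with UniSp2 scaling, and 2 to 3 with a rat left out. At week 8 all 7 were called, 6 with RLE, filterByExpr and DESeq2, 5 at more than 2-fold, and 6 to 7 with a rat left out. From week 4 to week 8, 4 were called, 7 with UniSp2 scaling, 5 with filterByExpr and DESeq2, 3 at more than 2-fold, and 4 to 5 with a rat left out. The causes were not tested. No paired or blocked fit with the rat changed another member's call.

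With UniSp2 scaling the 310 abundant miRNAs had median log2 changes of -0.32, -0.29 and -2.01 at weeks 1, 4 and 8 and -1.69 from week 4 to week 8, against -0.04, 0.07, -0.12 and -0.15 with TMM; relative to the week 8 median the members lay between -2.0 and -0.38 at week 8. Calls over all miRNAs at week 8 were 88 higher and 162 lower, 1 and 498 with UniSp2 scaling; from week 4 to week 8 they were 76 and 137, 1 and 467 with UniSp2 and 106 and 112 with RLE. At week 1 they were 29 and 21, 3 and 59 with UniSp2 and 7 and 25 with library size. miR-125b-2-3p from week 4 to week 8 turned to -1.43 with UniSp2 scaling.

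Strong minus weak differences over all time points changed sign, with none called: with UniSp2 scaling to -0.016 (miR-125b-1-3p), -0.097 (miR-99a-5p), -0.034 (miR-99b-5p) and -0.0098 (miR-100-5p); for miR-125b-1-3p to -0.076 without week 8, -0.11 with samples of a rat summed and -0.022 with the rat as random replicate block in limma-voom; for miR-99a-5p to -0.0059 with summed samples; and for miR-125b-2-3p to 0.023 with library size. Leaving out a rat gave -0.057 to 0.073 (miR-125b-1-3p), -0.042 to 0.072 (miR-99a-5p) and -0.016 to 0.17 (miR-99b-5p). Of 27 ratio tests over time, 6 passed, 5 to 7 with a rat left out. Depth limits miR-125b-1-3p, read 1 to 47 times per sample.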
